A study of Mus musculus with 12 samples.

Results

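The astrocyte marker mRNAs examined here are the transcripts of *Gfap*, *Vim*, *Aqp4*, *Aldoc*, *S100b*, *Sox9*, *Glul*, *Clu*, *Apoe* and *Igfbp2*, 10 of the 55573 genes in the count table. They were listed by name as known astrocyte genes, with no threshold on a measured value, and all 10 were among the 16820 genes that passed the filter on low counts. RIP-seq, in which RNA bound to a protein is pulled down with an antibody and sequenced, was performed on primary hippocampal neurons from newborn C57BL/6 mice after 14 days in culture. The 4 groups of 3 libraries each were Input, which is RNA from a fraction of the cell lysate, and RNA eluted from beads carrying an antibody against endogenous YTHDF1, YTHDF2 or YTHDF3. The RIP groups were made with different antibodies, Input went through no antibody or bead step, and all cultures received Ara-C, a drug that acts on dividing cells, early in culture to limit glial growth. Hippocampi from the pups of single litters, of both sexes, were pooled, and lysate from 3 wells was combined for each replicate. A RIP with a control antibody was not analysed here, so RNA that sticks to beads cannot be told apart from RNA bound by a YTHDF protein.

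YTHDF1, YTHDF2 and YTHDF3 are cytoplasmic proteins whose YTH domain binds N6-methyladenosine (m6A), a modified base found in many mRNAs. Readers of m6A are known for acting on the decay, translation and localization of the mRNAs they bind. Astrocytes clear glutamate and potassium around synapses, supply neurons with metabolites and secrete lipoproteins, and they can persist in neuronal cultures.

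The sites below show GGACT, a common form of the m6A consensus, in capitals. They are shown for 4 of the 6 markers that hold these 5 letters in the 3′ UTR. In the paired comparison of the YTHDF3 RIP with Input, given below, *Sox9* rose. The other markers with such a site, *Aldoc*, *Gfap*, *Glul*, *Aqp4* and *S100b*, all fell. Each is the occurrence nearest to the stop codon, within the 3′ UTR, read 5′ to 3′ on the mRNA strand from GENCODE M21 on GRCm38.
*Sox9* (chr11:112785865-112785889, plus strand, 364 bases after the stop codon): ctgcctgtttGGACTttgtaattat
*Aldoc* (chr11:78326549-78326573, plus strand, 204 bases after the stop codon): gaagatggggGGACTttctagaagt
*Gfap* (chr11:102887841-102887865, minus strand, 821 bases after the stop codon): caggagagagGGACTtccgtccact
*Glul* (chr1:153908175-153908199, plus strand, 2 bases after the stop codon): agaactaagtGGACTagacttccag

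GGACT was searched on the mRNA strand of 1 coding transcript per gene. It occurred in 9 of the 10 marker mRNAs, or 90%, and in 92.1% of the 13333 coding genes tested. Within the 3′ UTR it occurred in 6 of the 10 markers, or 60%, and in 61.2% of those coding genes. The median was 1.11 occurrences per kb in the markers and 1.04 per kb in all coding genes tested. *Igfbp2* had none in its transcript of 1307 bases, whereas *Aqp4* had 6, of which 4 lay in the 3′ UTR. These letters do not show that a site is methylated.

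Levels are given as CPM, the count of a gene relative to the total of its library, scaled between libraries by TMM, and values in a series are in the order of replicates 1, 2 and 3. Library totals lay between 6020072 and 38909592 counts. The summed level of the 10 markers was 673, 4120 and 4500 CPM in the Input libraries, so that the Input of replicate 1 held far less astrocyte RNA than the others. In these bulk libraries fewer astrocytes and less RNA per astrocyte cannot be told apart. The sums were 1050, 2390 and 1530 CPM in the YTHDF1 RIP, 3350, 3430 and 3460 CPM in the YTHDF2 RIP, and 354, 1400 and 2190 CPM in the YTHDF3 RIP. The YTHDF3 libraries followed the Input libraries of the same number, with replicate 1 lowest and replicate 3 highest. The YTHDF1 and YTHDF2 libraries did not, although the study describes a shared lysate and Input for each replicate.

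Other lists moved along with the markers. Among the Input libraries, the 12 neuronal genes summed to 5620, 4270 and 3520 CPM, the reverse order of the astrocyte sums. The oligodendrocyte lineage list summed to 64.4, 436 and 383 CPM and the proliferation list to 9.22, 79.1 and 179 CPM, also lowest in replicate 1. Over all 12 libraries, oligodendrocyte lineage genes summed to 63.9 to 1480 CPM and fibroblast and meningeal genes to 13.9 to 210 CPM. The microglial list stayed between 1.33 and 12.3 CPM, with 0 to 6 of its 10 genes at 0 in a library. The endothelial and mural list lay between 13.4 and 41.6 CPM and the ependymal list between 6.4 and 16.8 CPM. The part that other cell types played in the differences below was not tested.

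**Figure D1:**
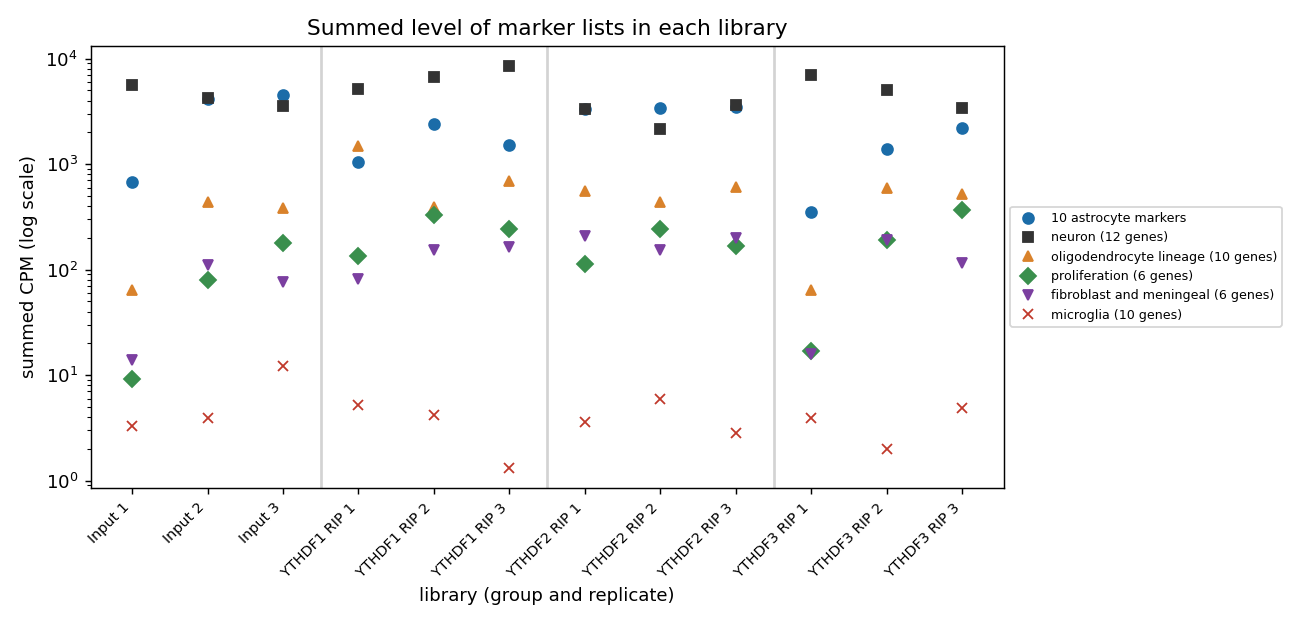
Summed CPM of 6 marker lists (vertical axis, log scale) in each of the 12 libraries (horizontal axis, by group and replicate). The 10 astrocyte markers sum to 673 CPM in Input 1 and 354 CPM in YTHDF3 RIP 1 and to at least 1050 CPM in every other library, while the microglial list does not exceed 12.3 CPM.

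The markers varied between Input cultures far more than most genes did. The ratio of the highest to the lowest Input library was 3.05 to 15.6 across the 10 markers, with a median of 7.15. Over the 10513 genes with a mean of at least 100 normalised counts, the median ratio was 1.33 and the 95th percentile 3.04. *Aqp4* spread the most, at 15.6-fold, followed by *Gfap* at 12.4-fold and *Aldoc* at 10.3-fold. *S100b* spread the least, at 3.05-fold, and was also the rarest marker, with 11 to 114 counts per library.

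The glial cytoskeleton is represented by *Gfap* and *Vim*, which encode intermediate filament proteins. *Gfap* measured 102, 366 and 1270 CPM in Input, 71.6, 579 and 262 CPM with YTHDF1, 182, 751 and 458 CPM with YTHDF2, and 66.5, 213 and 677 CPM with YTHDF3. *Vim* measured 80.3, 142 and 373 CPM in Input, 53.1, 284 and 91.8 CPM with YTHDF1, 81.7, 205 and 87.6 CPM with YTHDF2, and 47.9, 73 and 185 CPM with YTHDF3. For both genes the groups overlapped widely, and the highest library was replicate 3 in Input and YTHDF3 but replicate 2 in YTHDF1 and YTHDF2.

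*Aqp4* encodes the water channel of astrocyte endfeet, *Aldoc* a glycolytic aldolase and *Glul* glutamine synthetase, which converts glutamate to glutamine. *Aqp4* measured 20, 156 and 312 CPM in Input, 25.4, 73.3 and 35.9 CPM with YTHDF1, 53.7, 107 and 75.3 CPM with YTHDF2, and 8.81, 57.2 and 144 CPM with YTHDF3. *Aldoc* measured 40.6, 419 and 220 CPM in Input, 49.3, 61.5 and 99.6 CPM with YTHDF1, 111, 74 and 191 CPM with YTHDF2, and 11.9, 75.8 and 50.4 CPM with YTHDF3. *Glul* measured 42.2, 353 and 194 CPM in Input, 131, 129 and 192 CPM with YTHDF1, 233, 113 and 236 CPM with YTHDF2, and 33.2, 163 and 131 CPM with YTHDF3. *Aldoc* and *Glul* peaked in replicate 2 of Input and YTHDF3, unlike *Aqp4*, which peaked in replicate 3. *Glul* overlaps the microRNA gene *Mir8114* on the same strand, and reads there were counted for both.

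*S100b* encodes a calcium-binding protein and *Sox9* a transcription factor of astrocytes and their precursors. *S100b* measured 2.74, 8.36 and 6.76 CPM in Input, 2.31, 2.35 and 0.974 CPM with YTHDF1, 3.32, 1.64 and 2.36 CPM with YTHDF2, and 0.582, 3.22 and 1.65 CPM with YTHDF3. Every YTHDF1 library lay below every Input library, as in 28.3% of all genes. *Sox9* measured 21.5, 96.2 and 128 CPM in Input, 105, 156 and 127 CPM with YTHDF1, 122, 135 and 130 CPM with YTHDF2, and 32.4, 139 and 177 CPM with YTHDF3. It was the only marker with a higher mean in all 3 RIPs than in Input, with overlap in each case.

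*Clu* and *Apoe* encode secreted apolipoproteins and *Igfbp2* a secreted binding protein for insulin-like growth factors. *Clu* measured 44.3, 149 and 203 CPM in Input, 53.5, 163 and 114 CPM with YTHDF1, 109, 157 and 207 CPM with YTHDF2, and 27.5, 55.8 and 123 CPM with YTHDF3. *Apoe* measured 279, 2330 and 1660 CPM in Input, 539, 903 and 589 CPM with YTHDF1, 2410, 1830 and 2020 CPM with YTHDF2, and 114, 594 and 670 CPM with YTHDF3. *Igfbp2* measured 40.5, 100 and 141 CPM in Input, 17.5, 41.9 and 15.9 CPM with YTHDF1, 49.4, 59.7 and 49.2 CPM with YTHDF2, and 10.3, 29.1 and 30.5 CPM with YTHDF3. *Igfbp2* was below every Input library in all YTHDF3 libraries, as were 29.3% of all genes. *Apoe* was higher in every YTHDF2 library than in any YTHDF1 library, as were 16.5% of all genes, and than in any YTHDF3 library, as were 22% of them. *Apoe* made up 61.2% ± 9.53 (SD, n = 3) of the summed marker level in the YTHDF2 RIP, 44.9% ± 10.3 in Input, 42.6% ± 7.68 for YTHDF1 and 35.1% ± 6.33 for YTHDF3.

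**Figure D2:**
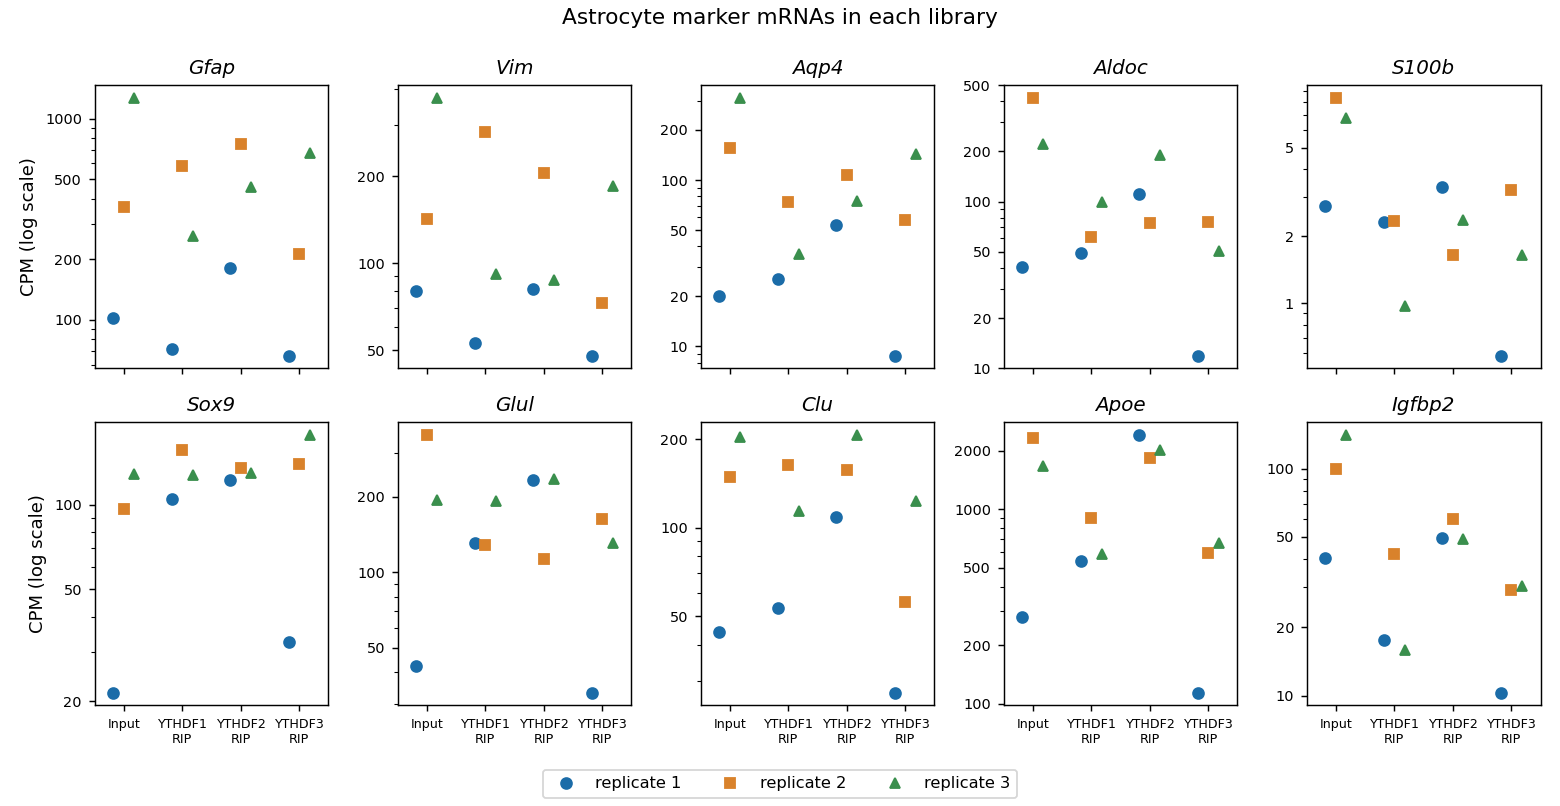
CPM of each marker (vertical axes, log scale, 1 panel per gene) in the 4 groups (horizontal axes), with colour and shape giving the replicate number. Replicate 1 is the lowest Input and the lowest YTHDF3 library for all 10 genes, from 279 and 114 CPM for *Apoe* to 2.74 and 0.582 CPM for *S100b*, whereas the order differs in the YTHDF1 and YTHDF2 RIPs.

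Each RIP was first compared with Input in 1 model of all 12 libraries. A call needed a log2 fold change of at least 0.32 in size against Input and an adjusted p of at most 0.05. The summed marker level was 673 CPM in Input replicate 1, but at least 1050 CPM in every YTHDF1 and YTHDF2 library. For YTHDF1 and YTHDF2, binding thus cannot be told apart from differences in astrocyte RNA between cultures. No marker was enriched in any of the 3 RIPs. *S100b* and *Igfbp2* fell in the YTHDF1 RIP, *Aldoc*, *S100b* and *Igfbp2* fell in the YTHDF3 RIP, and none changed in the YTHDF2 RIP. In the YTHDF1 RIP 2 of 10 markers were called lower against 26.1% of all genes and 0 of 10 higher against 27.5%. In the YTHDF2 RIP the shares over all genes were 19.3% lower and 16.1% higher, and in the YTHDF3 RIP 3 of 10 markers were called lower against 23.2%, and 0 of 10 higher against 16.7%. The median log2 fold change of the 10 markers was -1 for YTHDF1, -0.5 for YTHDF2 and -1.09 for YTHDF3, where the medians over all genes were 0.02, 0.02 and 0.05. At an unadjusted p under 0.05, 3 markers passed for YTHDF1, 0 for YTHDF2 and 4 for YTHDF3, against 58.9%, 45.5% and 48.1% of all genes.

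*Igfbp2* had a log2 fold change of -1.91 ± 0.53 (SE) with YTHDF1 (edgeR adjusted p = 0.00973) and of -2.01 ± 0.52 with YTHDF3 (edgeR adjusted p = 0.01). In the YTHDF2 RIP it was -0.83 ± 0.51 (edgeR adjusted p = 0.228). *S100b* had log2 fold changes of -1.7 ± 0.61 for YTHDF1 (edgeR adjusted p = 0.0349) and -1.7 ± 0.6 for YTHDF3 (edgeR adjusted p = 0.0395). *Aldoc* had a log2 fold change of -2.3 ± 0.78 for YTHDF3 (edgeR adjusted p = 0.0353). The calls on *Igfbp2* held when any 1 library was left out. Those on *S100b* and *Aldoc* did not: without Input replicate 2 the adjusted p was 0.124 for *S100b* in YTHDF1, 0.14 for *S100b* in YTHDF3 and 0.164 for *Aldoc* in YTHDF3, and Input replicate 3 and replicates 1 and 3 of the RIP in question each ended them too, at an adjusted p of 0.054 to 0.102, as did YTHDF2 replicate 3 for *S100b* in YTHDF3, at 0.0532. Without Input replicate 1, 5 markers were called lower in the YTHDF1 RIP, where *Aqp4* reached -2.38, *Aldoc* -2.19 and *Apoe* -1.56 on the log2 scale, and *Apoe* reached -2.12 (edgeR adjusted p = 0.0146) in the YTHDF3 RIP.

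The other markers were not called in this model. *Sox9* had log2 fold changes of 0.67 ± 0.61, 0.66 ± 0.61 and 0.51 ± 0.6 with YTHDF1, YTHDF2 and YTHDF3. *Apoe* had values of -1.07 ± 0.69, 0.55 ± 0.68 and -1.63 ± 0.7, and *Clu* of -0.26 ± 0.61, 0.26 ± 0.61 and -0.94 ± 0.62. *Gfap* had values of -0.92 ± 1, -0.32 ± 1 and -0.86 ± 1. The replicates of each group overlapped those of Input for all of these. The remaining log2 fold changes ran from -1.85 (*Aqp4*, YTHDF1) to -0.02 (*Glul*, YTHDF2).

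Because each YTHDF3 library deviated together with the Input of its own number over all genes, the YTHDF3 RIP was also compared with Input in pairs, so that differences between cultures cancel. With the pairs kept, all 10 markers changed: 9 fell, against 32.3% of all genes called lower, and *Sox9* rose, against 36.5% called higher. *Aldoc* had the strongest decrease, with log2 ratios to its own Input of -1.77, -2.47 and -2.13, and a fitted log2 fold change of -2.08 ± 0.11 (edgeR adjusted p = 5.58e-14). *Igfbp2* followed with ratios of -1.97, -1.79 and -2.21, or 21.6% to 29% of the Input CPM, and a fitted value of -1.92 ± 0.11 (edgeR adjusted p = 1.96e-13). *Apoe* had ratios of -1.28, -1.97 and -1.31 (fitted -1.46 ± 0.12) and *S100b* of -2.24, -1.37 and -2.03 (fitted -1.67 ± 0.21). The 4 strongest decreases thus included the 3 shortest markers, *S100b*, *Igfbp2* and *Apoe*.

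*Gfap* stood at 65.2%, 58.1% and 53.5% of the CPM of its own Input in the 3 pairs, although its Input level itself differed by 12.4-fold. Its fitted log2 fold change was -0.71 ± 0.1, that of *Vim* -0.85 ± 0.09, of *Clu* -0.89 ± 0.11, of *Aqp4* -1.18 ± 0.1 and of *Glul* -0.63 ± 0.11. *Sox9* stood at 151%, 145% and 138% of its own Input, with a fitted log2 fold change of 0.59 ± 0.09 (edgeR adjusted p = 6.26e-06). The highest adjusted p of the other markers was 1.84e-05, for *Glul*, whose 3 log2 ratios were -0.35, -1.12 and -0.57 (SD 0.4). The fitted SE share spread across genes and can be narrower than the ratios of a single marker. The 9 decreases and the increase in *Sox9* each appeared in 3 of 3 pairs, as did a decrease in 39.6% and an increase in 42.1% of all genes. The median over the markers was -1.03 on the log2 scale, against 0.11 over all genes.

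**Figure D3:**
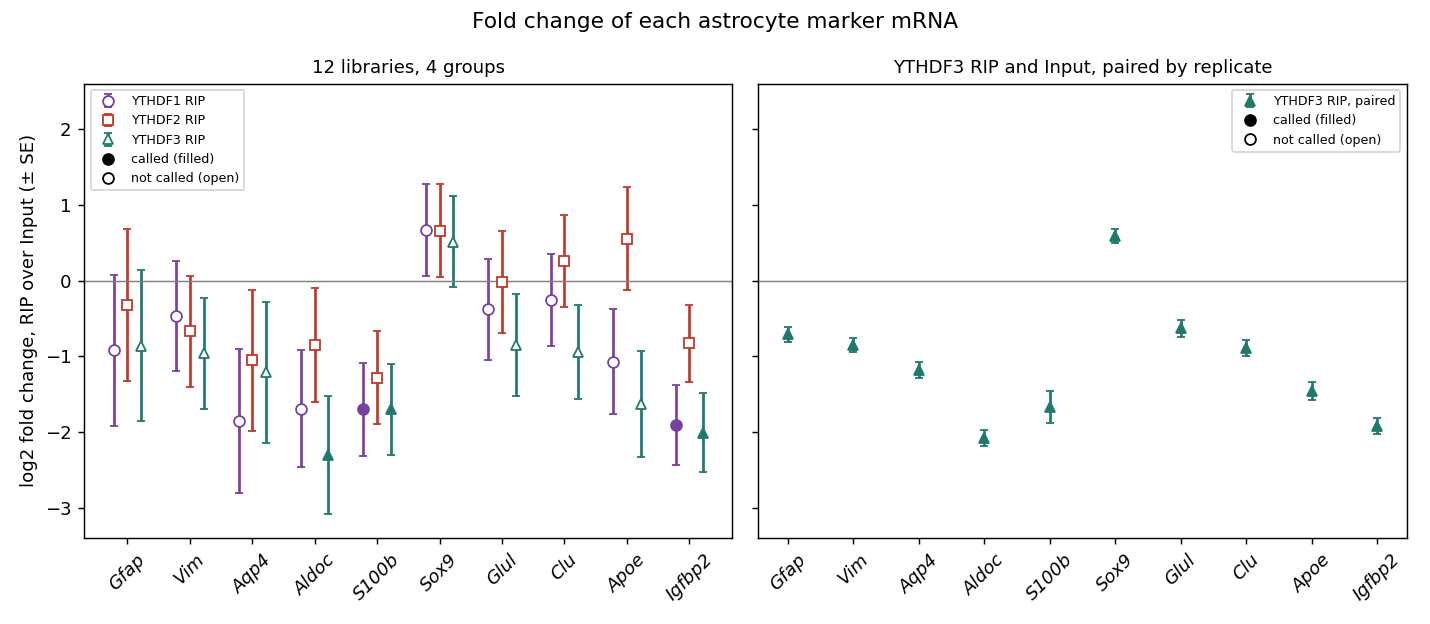
Log2 fold change of each marker (vertical axis, bars are 1 SE) in the 3 RIPs against Input in the model of 12 libraries (left, 3 libraries per group) and in the paired comparison of the YTHDF3 RIP with Input (right, 3 pairs). Filled symbols passed the test: 2 markers for YTHDF1, 0 for YTHDF2 and 3 for YTHDF3 on the left, and all 10 on the right, where *Sox9* alone lies above 0.

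The same ratios could not be read as pairs for the other proteins. Taken by number, the log2 ratio of *Apoe* to Input was 3.11, -0.35 and 0.28 for YTHDF2 and 0.95, -1.37 and -1.49 for YTHDF1. *Glul* gave 2.47, -1.65 and 0.28 in the YTHDF2 RIP, a spread of 2.06 (SD, n = 3) where YTHDF3 had 0.4. Across the 10 markers the SD of these ratios was 0.06 to 0.45 for YTHDF3, 0.6 to 1.74 for YTHDF1 and 0.72 to 2.06 for YTHDF2.

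Between RIPs, a call needed a change of at least 2-fold and an adjusted p of at most 0.05, and without a replicate block no marker was called in any of the 3 comparisons. Over all genes, 11.4% were higher and 6.13% lower in the YTHDF1 than in the YTHDF2 RIP, 11% higher and 3.62% lower in YTHDF1 than in YTHDF3, and 3.97% higher and 1.17% lower in YTHDF2 than in YTHDF3. *Apoe* came nearest, with averages of 2090 CPM for YTHDF2, 677 CPM for YTHDF1 and 459 CPM for YTHDF3. Its log2 fold change was 2.18 ± 0.71 for YTHDF2 over YTHDF3 (edgeR adjusted p = 0.0801) and -1.62 ± 0.7 for YTHDF1 over YTHDF2 (edgeR adjusted p = 0.112). Both differences in *Apoe* passed with DESeq2 (DESeq2 adjusted p = 0.0129 and 0.0393) and without Input replicate 1 (edgeR adjusted p = 0.0384 and 0.0417). *Igfbp2* was called lower in YTHDF1 than in YTHDF2 without YTHDF1 replicate 2, at -1.71 (edgeR adjusted p = 0.0319). The study's methods have the lysate of each replicate divided among the 3 RIPs, and with the replicate number as a block some calls changed. With the YTHDF1 and YTHDF2 groups and the block, *Apoe* (-1.7, edgeR adjusted p = 0.00588) and *Igfbp2* (-1.26, edgeR adjusted p = 0.013) were lower in YTHDF1. With all 12 libraries and the block *Clu* was higher in YTHDF2 than in YTHDF3 (1.41, edgeR adjusted p = 0.0434). Over all genes, deviations of same-numbered libraries from group means correlated at 0.0697, 0.553 and 0.361 between YTHDF1 and YTHDF2. Between YTHDF2 and YTHDF3 they correlated at 0.175, -0.322 and -0.355. Neither set had every value above 0.1, so the blocked calls are alternatives and cannot be read as pairs. At an unadjusted p under 0.05, 1 marker passed for YTHDF1 against YTHDF2, 0 for YTHDF1 against YTHDF3 and 2 for YTHDF2 against YTHDF3, where 37.6%, 35.3% and 25.4% of all genes did.

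*Igfbp2* differed by -1.07 ± 0.52 (YTHDF1 over YTHDF2), 0.1 ± 0.51 (YTHDF1 over YTHDF3) and 1.18 ± 0.52 (YTHDF2 over YTHDF3) on the log2 scale. *Aldoc* differed by -0.84 ± 0.75, 0.61 ± 0.75 and 1.45 ± 0.76 in the same order, and *Clu* by -0.52 ± 0.61, 0.68 ± 0.61 and 1.2 ± 0.62. *Sox9* differed by 0.01 ± 0.6, 0.16 ± 0.6 and 0.15 ± 0.6, and *S100b* by -0.42 ± 0.63, 0.01 ± 0.62 and 0.43 ± 0.61. For *Gfap*, *Vim*, *Aqp4* and *Glul* the 12 values lay between -0.81 and 0.83. All 10 markers had a positive value for YTHDF2 over YTHDF3, with a median of 0.69 against 0.07 over all genes. *Aqp4* and *Sox9* turned negative when libraries were scaled by their size alone, at -0.16 each. YTHDF3 replicate 1 had a summed marker level of 354 CPM, where the YTHDF2 libraries had 3350 to 3460 CPM. Without that replicate *Aqp4* (-0.35), *Sox9* (-0.29) and *Vim* (-0.05) were negative. The part of culture content in these differences was not tested.

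The other genes of the astrocyte, listed as 50 genes of which 48 were tested, included both higher and lower mRNAs in every RIP. In the model of 12 libraries 2 were higher and 6 lower in the YTHDF1 RIP, 1 higher and 2 lower in the YTHDF2 RIP, and 1 higher and 4 lower in the YTHDF3 RIP. These shares, 2.08% to 4.17% higher and 4.17% to 12.5% lower, lay below those of all genes in each RIP, which were 16.1% to 27.5% higher and 19.3% to 26.1% lower. *Synm*, an intermediate filament protein, rose in all 3 RIPs, by 1.75 ± 0.21, 0.89 ± 0.21 and 1.1 ± 0.21 on the log2 scale. *Cst3*, a secreted protease inhibitor, fell by 2.46, 1.75 and 3.47, and *Mt3*, a metallothionein, fell by 2.37, 2.14 and 3.7. *Nfia*, a transcription factor of gliogenesis that neurons also express, was at 1160, 6870 and 1060 CPM in the YTHDF1 RIP and at 139 to 231 CPM in Input, a log2 fold change of 3.94 ± 0.67 (edgeR adjusted p = 0.000533).

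The glutamate transporters *Slc1a2* and *Slc1a3*, the gap junction gene *Gja1* and the folate enzyme *Aldh1l1* were not called in this model. For YTHDF1, YTHDF2 and YTHDF3 their log2 fold changes were 0.37, -0.02 and 0.41 (*Slc1a2*), -0.85, -0.83 and -0.5 (*Slc1a3*), -0.09, 0.27 and 0.18 (*Gja1*) and 0.96, 1.6 and 0.44 (*Aldh1l1*). *Tnc*, a matrix glycoprotein, had values of 1.97 ± 1.04, 1.57 ± 1.03 and 1.13 ± 1.01, and *Lcn2*, a secreted lipocalin of reactive glia, of -2.05 ± 2.37, -2.57 ± 2.49 and -3.81 ± 2.54. The receptor gene *Fgfr3* had 1.82 ± 0.86 for YTHDF2 and *Nes*, which encodes nestin, 1.06 ± 0.56 for YTHDF3.

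In the paired comparison with YTHDF3, 17 of the 48 genes rose and 21 fell, or 35.4% and 43.8%, against 36.5% and 32.3% of all genes. The highest values were those of *Tnc* (1.22 ± 0.12), *Synm* (1.17 ± 0.11) and *Nes* (1.14 ± 0.09). The lowest were those of *Mt3* (-3.6 ± 0.14), *Cst3* (-3.31 ± 0.11) and *Lcn2* (-3.71 ± 0.22), which was at 0 to 0.152 CPM in replicates 1 and 2 of Input and YTHDF3 and lost its call without replicate 3, at an adjusted p of 0.0921. *Slc1a2* rose by 0.47 ± 0.1, *Aldh1l1* rose by 0.54 ± 0.1 and *Slc1a3* fell by 0.38 on the log2 scale. *Gja1*, at 0.29 ± 0.1, stayed below the fold required.

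All 3 cytoskeletal genes on that list rose with YTHDF3 in the paired comparison, whereas *Gfap* and *Vim* fell. All 4 metal and lipid binding genes fell, with a median of -2.51. Of the receptors, 3 of 6 rose and 1 fell, and of the transcription factors 3 of 6 rose and 2 fell, *Sox2* being higher by 0.81 ± 0.12, near *Sox9*. Of the 7 secreted and matrix genes 3 rose and 4 fell. Transport and metabolism genes were split, with 4 of 13 higher and 5 lower. Of the reactive genes 0 of 4 rose and 3 fell, and of the channel, junction and adhesion genes 1 of 5 rose and 2 fell. With 3 to 13 genes each, these counts are descriptions beside the 36.5% of all genes called higher and 32.3% called lower.

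Exonic length, the bases of all annotated exons of a gene, moved with these fold changes. Across the 58 astrocyte genes, Spearman's rho between length and the paired YTHDF3 fold change was 0.59, and over all 16820 genes it was 0.53. These correlations are across genes, which share the same libraries. The 18 astrocyte genes that rose had a median exonic length of 4961.5 bases and the 30 that fell 2751 bases. The markers had a median of 3609.5 bases against 3927.5 bases for all genes tested, from 1484 bases for *S100b* to 6233 bases for *Aqp4*. With each library's length trend removed, all 9 decreases and the increase in *Sox9* were still called in the paired comparison. *S100b* moved from -1.67 to -0.89, *Apoe* from -1.46 to -0.99 and *Igfbp2* from -1.92 to -1.33, whereas *Aqp4* moved from -1.18 to -1.52 and *Sox9* from 0.59 to 0.55. In the model of 12 libraries *S100b* was then no longer called in either RIP, at an adjusted p of 0.153 for YTHDF1 and 0.283 for YTHDF3. *Slc1a2* and *Gja1* turned from above to below 0 in the paired comparison, at -0.22 and -0.3.

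**Figure D4:**
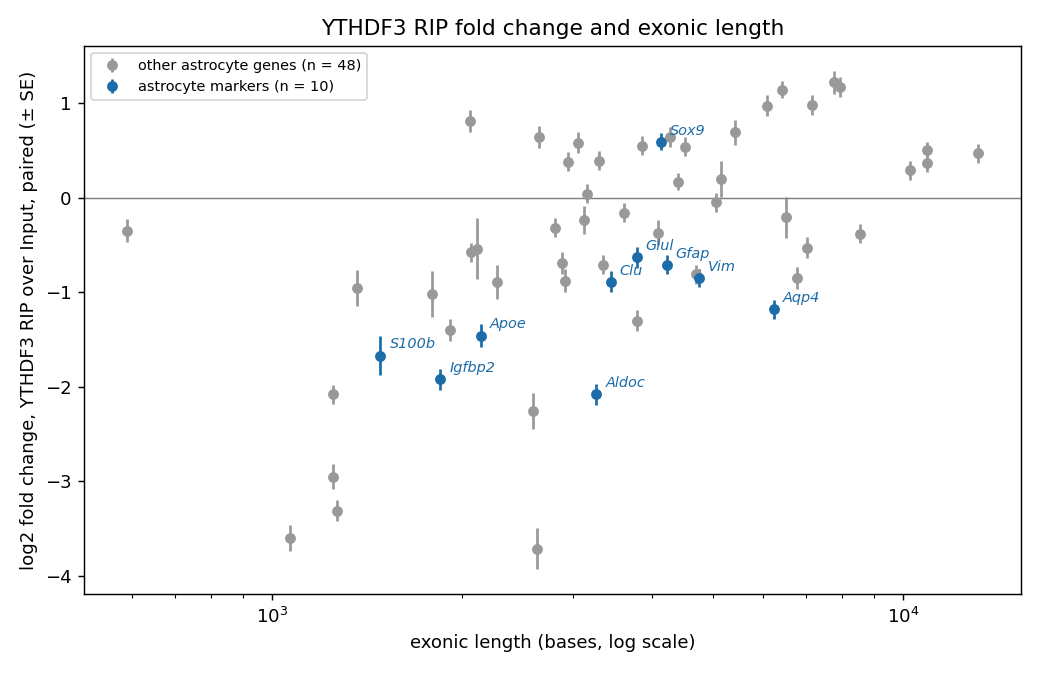
Paired log2 fold change of the YTHDF3 RIP over Input (vertical axis, bars are 1 SE) against exonic length in bases (horizontal axis, log scale) for the 10 markers (blue) and 48 other astrocyte genes (grey). Genes of shorter exonic length lie lower, with a Spearman's rho of 0.59 over the 58 genes. *Sox9*, at 4135 bases and 0.59, lies above the markers of similar exonic length. The coding transcript searched for GGACT has 4135 bases for *Sox9*, but 2648 for *Gfap*, 2193 for *Vim*, 2792 for *Glul* and 5054 for *Aqp4*.

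Pooled over groups, the markers varied alike between libraries, but they did not do so within every group. In Input and YTHDF3, replicate 1 was lowest for every marker. In the YTHDF2 RIP, *Gfap*, *Vim*, *Aqp4*, *Sox9* and *Igfbp2* were highest in replicate 2, where *Aldoc*, *S100b*, *Glul* and *Apoe* were lowest. In the YTHDF1 RIP, *Aldoc* and *Glul* were highest in replicate 3 and all other markers in replicate 2. How far the low replicate 1 libraries set the r values below was not tested. With group means removed, Pearson's r between pairs of markers over the 12 libraries ranged from 0.273 to 0.981, with a median of 0.822 over 45 pairs. The closest pair was *Aldoc* and *Glul* at 0.981 and the least alike was *Vim* and *S100b* at 0.273. *Sox9* (0.986), *Aqp4* (0.976) and *Apoe* (0.965) lay nearest to the mean profile of the markers, and *S100b* (0.736) and *Vim* (0.752) farthest from it. Each marker is part of that profile, which raises its r, unlike the genes outside the markers given below. These values are descriptions over libraries that share culture and depth.

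Of 10504 other genes with a mean of at least 100 normalised counts, 290, or 2.76%, correlated with that profile at 0.9 or more. Of the 43 other astrocyte genes among them, 16, or 37.2%, did so. The closest were *Serpinh1* (0.996), a collagen chaperone, *Emp2* (0.995), *Ltbp3* (0.991), *Slc13a3* (0.989), a dicarboxylate transporter, *Dock1* (0.988) and *Itgb8* (0.988), an integrin subunit, together with *Mfge8* and *Ezr* of the astrocyte list. With group means kept, the 5 closest were *Serpinh1* (0.987), *Anxa2* (0.962), *Slc9a3r1* (0.962), *Acsf2* (0.96) and *Pon2* (0.96).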

How the data were processed

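Gene counts were deposited by the authors for 12 libraries. Per the labels and methods, UMIs were extracted with UMI-tools 1.1.1, adapters trimmed with cutadapt 3.4, reads aligned with STAR 2.7.7a to GRCm38, duplicates removed by UMI, and reads counted over exons with featureCounts 2.0.1 on Ensembl 97, on the reverse strand, with multi-mapping reads kept and reads over several genes counted for each. The authors' comparison tables hold fold changes and p-values, which were not used; symbols came from a reference name table, which matched 55394 (99.7%) of the identifiers, with the rest and the biotypes read from the YTHDF1 table where it lists them. Genes with a mean of at least 10 normalised counts (16820 of 55573) were tested with edgeR 4.0.16 (quasi-likelihood, TMM, Benjamini-Hochberg) in R 4.3.3, in 1 model of 4 groups. Calls needed a log2 fold change of at least 0.32 against Input or 2-fold between RIPs and an adjusted p of at most 0.05. SE is the size of the log2 fold change over the square root of F.

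YTHDF3 replicates were paired with Input because deviations from group means correlated at 0.835, 0.539 and 0.812 for the same number, each above 0.1; this fit used those 2 groups with the replicate as a block. Alternatives included DESeq2 1.42.0. Simulated data for YTHDF3 against Input held 16820 genes, of which 100 were changed 2-fold and 100 were changed 4-fold. The model of 12 libraries recovered 11% of 2-fold and 75% of 4-fold changes and the paired fit 97% and 100%. Each fit had its own simulated data, with the spread of that fit, and only the paired data held culture effects. These shares therefore do not compare the fits. Many more genes were called in the measured data, so the shares may not hold there. The members and lists were chosen with earlier results of these data known. All 10 markers are named in every comparison; of the other astrocyte genes, the 3 highest and 3 lowest with a mean of at least 100 counts and *Slc1a2*, *Slc1a3*, *Gja1* and *Aldh1l1* are named. The genes most like the markers are the 8 with the highest correlation with group means removed and the 5 highest with them kept. *Sox2*, *Olig1*, *Pdgfra* and *C3* were singled out after their values were seen. Replicates are described as biological. The p-values and SE rest on the spread between these libraries, which edgeR partly shares across genes. In the paired fit they do not measure the spread of each marker over its own 3 pairs alone. Library totals and counting error limit rare genes such as *S100b*.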

Additional observations from a re-analysis of the deposited data

Results flagged for a closer look

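In the model of 12 libraries without a block, no marker differed between RIPs past the threshold, but 2 other astrocyte genes named above did, by the test of the difference itself. *Nfia* was higher in the YTHDF1 RIP than in the YTHDF2 RIP by 4.62 ± 0.69 on the log2 scale (edgeR adjusted p = 0.000591) and than in the YTHDF3 RIP by 3.51 ± 0.66 (edgeR adjusted p = 0.0033). Its averages were 3030, 123 and 266 CPM for YTHDF1, YTHDF2 and YTHDF3. The YTHDF1 average combined 6870 CPM in replicate 2 with 1160 and 1060 CPM in replicates 1 and 3. *Mt3* was lower in the YTHDF3 RIP, where the YTHDF1 RIP exceeded it by 1.32 ± 0.41 (edgeR adjusted p = 0.0395) and the YTHDF2 RIP by 1.56 ± 0.42 (edgeR adjusted p = 0.0436), with averages of 9.81, 11.4 and 3.89 CPM for YTHDF1, YTHDF2 and YTHDF3. Both values for *Mt3* lie close to the threshold.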

How the results depend on the processing

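In the paired comparison of the YTHDF3 RIP with Input, 9 markers lower and *Sox9* higher were called with libraries scaled by size alone, by DESeq2 size factors or over protein-coding genes, with the length trend removed, and without any 1 pair; those alternatives were chosen after seeing the data. The counts of markers in the model of 12 libraries were less firm. The number lower in the YTHDF1 RIP (2) became 6 with no filter on low counts and 1 with a minimum mean of 50, with 2 groups only and the replicate block, with the length trend removed, and with both length trend removed and replicate block, and ranged from 1 to 5 when 1 library was left out. The number lower in the YTHDF2 RIP (0) became 4 with no filter. The number lower in the YTHDF3 RIP (3) became 7 with no filter and 1 with library size alone, with 2 groups only and with the length trend removed, and ranged from 1 to 4 when 1 library was left out; with 2 groups and the replicate block it was 9, with 1 higher. Lower in YTHDF1 than YTHDF2 (0) became 1 with DESeq2 and with 2 groups only, and 2 with library size alone, no filter, and 2 groups with the replicate block, and ranged from 0 to 1 when 1 library was left out. Higher in YTHDF2 than YTHDF3 (0) became 1 with DESeq2, with the replicate block, and with length trend and replicate block, and 2 with no filter, and ranged from 0 to 1 when 1 library was left out. *S100b*, with a mean of 41.9 normalised counts, is not tested at a minimum mean of 50, so its call in the YTHDF1 RIP cannot be made there. The cause of the other changes was not tested.

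Apart from the alternatives, the replicate block was used for the paired YTHDF3 comparison only. The reason is that the YTHDF1 and YTHDF2 libraries shared a number but not their deviations with Input. Correlations of same-numbered libraries with Input were 0.0895, -0.269 and -0.329 for YTHDF1 and 0.186, -0.326 and -0.318 for YTHDF2. Replicate 2 of both correlated best with Input replicate 3, at 0.471 and 0.568. Library size alone moved the median of all genes to -0.38 for YTHDF1 and 0.38 for YTHDF3, and TMM over protein-coding genes moved it to -0.22 for YTHDF1. Calls over all genes moved with it: for YTHDF1 against Input, 4624 higher and 4386 lower became 3073 and 6139 with library size alone, 3653 and 5453 over protein-coding genes, and 2390 and 3020 with 2 groups and the block, and for YTHDF3, 2812 and 3906 became 4821 and 2996 with library size alone. The paired 6144 and 5436 became 8089 and 4303 with library size alone. Between RIPs, library size alone turned 1925 higher and 1031 lower into 1063 and 2752 (YTHDF1 over YTHDF2), 1842 and 609 into 762 and 3393 (YTHDF1 over YTHDF3) and 668 and 197 into 471 and 718 (YTHDF2 over YTHDF3); over the other alternatives that left out no single library, YTHDF1 over YTHDF3 ranged from 328 to 2189 higher with 101 to 1174 lower, and YTHDF2 over YTHDF3 from 294 to 1043 higher with 98 to 769 lower, and without YTHDF3 replicate 2 the latter had 114 higher and 61 lower. Without YTHDF1 replicate 2, YTHDF1 over YTHDF2 had 1891 higher and 1945 lower.

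Some values changed sign, and among them only the increase of *Slc1a2* in the paired comparison had been called. Against Input with YTHDF1, *Gja1* was 0.41 with the replicate block and 0.34 with 2 groups and the block, and *Slc1a2* -0.05 with library size alone, -0.79 with the length trend removed and -0.83 with the block added. With 1 library left out, values ran from -0.72 to 0.08 (*Clu*), -1.86 to 0.26 (*Gfap*), -0.62 to 0.39 (*Gja1*), -0.86 to 0.35 (*Glul*), -9.37 to 5.95 (*Lcn2*), -0.33 to 0.68 (*Slc1a2*) and -1.52 to 0.24 (*Vim*). With YTHDF2, *Gfap* was 0.14 with the replicate block, 0.17 with 2 groups and 0.06 with the length trend removed as well, *Glul* was 0.38, 0.35 and 0.37 in these and 0.03 with library size alone, *Gja1* was -0.1 with the length trend removed, and *Slc1a2* was 0.03 with library size alone. With 1 library left out, values ran from -0.16 to 0.69 (*Clu*), -0.85 to 0.97 (*Gfap*), -0.27 to 0.74 (*Gja1*), -0.5 to 0.72 (*Glul*), -8.43 to 5.57 (*Lcn2*), -0.28 to 0.3 (*Slc1a2*) and -1.23 to 0.14 (*Vim*). With YTHDF3, *Gja1* was -0.32 and *Slc1a2* -0.22 with the length trend removed, and -0.32 and -0.21 with the block added, and the paired values became -0.3 and -0.22. With 1 library left out, values ran from -0.02 to 0.91 (*Aldh1l1*), -2.04 to 0.52 (*Gfap*), -0.36 to 0.71 (*Gja1*), -11.44 to 4.41 (*Lcn2*) and -0.97 to 0.09 (*Slc1a3*).

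Between YTHDF1 and YTHDF2, *Sox9* was -0.02 with DESeq2, -0.48 with library size alone, -0.13 over protein-coding genes, -0.11 with a minimum mean of 50, -0.05 with the replicate block or 2 groups, and -0.06 with 2 groups and the block or length trend and block; *Vim* was -0.36 with library size alone, -0.07 with 2 groups and the block and -0.04 with length trend and block. With 1 library left out, they ran from -0.2 to 0.14 (*Sox9*) and -0.84 to 0.76 (*Vim*). Between YTHDF1 and YTHDF3, library size alone gave -0.18 (*Aldoc*), -0.24 (*Apoe*), -0.15 (*Clu*), -0.3 (*Glul*), -0.69 (*Igfbp2*), -0.73 (*S100b*), -0.64 (*Sox9*) and -0.36 (*Vim*). *Gfap* was 0.13 with the replicate block and 0.03 with length trend and block. *Igfbp2* was -0.08 with TMM before the filter, no filter, or 2 groups and block, -0.12 over protein-coding genes, with 2 groups or with the length trend removed, -0.03 with a minimum mean of 50 and -0.04 with length trend and block. *S100b* was -0.06 with DESeq2, -0.08 with DESeq2 size factors, -0.2 with TMM before the filter or no filter, -0.21 over protein-coding genes, -0.04 with 2 groups and block, -0.19 with 2 groups, -0.24 with the length trend removed and -0.13 with the block added. *Sox9* was -0.03 with TMM before the filter or no filter, -0.08 over protein-coding genes and -0.06 with 2 groups. With 1 library left out, values ran from -1.33 to 0.44 (*Aqp4*), -1.08 to 1.12 (*Gfap*), -0.62 to 0.34 (*Igfbp2*), -0.41 to 0.7 (*S100b*), -0.29 to 0.59 (*Sox9*) and -0.63 to 1.24 (*Vim*). Between YTHDF2 and YTHDF3, *Aqp4* and *Sox9* were each -0.16 with library size alone, and -0.09 and -0.1 with TMM before the filter or no filter; without 1 library they ran from -0.35 to 1.26 and -0.29 to 0.59, and *Vim* from -0.27 to 1.05.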

Other observations

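*Olig1*, a transcription factor of the oligodendrocyte lineage, was at 1200 CPM in YTHDF1 replicate 1 and at 34.2 to 278 CPM in the other 11 libraries. *Pdgfra*, a marker of oligodendrocyte precursors, was at 0.533 CPM in Input replicate 1 and 0.893 CPM in YTHDF3 replicate 1, and at 79.6 to 244 CPM in the other 10. The complement gene *C3*, which marks reactive astrocytes, was at 58.5 CPM in Input replicate 3, 65.8 CPM in YTHDF3 replicate 3, 124 CPM in YTHDF1 replicate 2 and 77 CPM in YTHDF2 replicate 2, and at 0.0388 to 1.35 CPM in the other 8 libraries.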
